A study of Mus musculus with 2 samples.

Results

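The 10 genes described here make and load MHC class I: the peptide transporter genes Tap1 and Tap2, the loading factor gene Tapbp, the transactivator gene Nlrc5, the light chain gene B2m and the heavy chain genes H2-K1, H2-D1, H2-Q10, H2-T23 and H2-M3. They were chosen by symbol, as the probe sets that the platform annotation gives to 1 gene, among 18193 genes so named on the array. Each probe set joins several short probes for the same transcript into 1 signal. Of the 10 genes, 9 had a probe set of their own, 25 probe sets in all, and H2-T23 had only probe sets shared with a second gene. Another 11 probe sets were shared between H2 genes of class I and are marked as shared wherever they appear. Levels of different probe sets are set side by side only to order or group them by brightness and in sums of marker signals. Every ratio is the CD103+ Th1 signal over the Th1 signal of the same probe set.

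RNA came from splenic CD4 T cells of wild type C57BL/6 mice, sorted magnetically to over 98% purity, and each culture was hybridised to 1 Affymetrix mouse array. CD103+ Th1 cells received 10 ng/ml of IFN-γ together with 3 ng/ml each of TGF-β and IL-4. Th1 cells received 1 ng/ml of IL-12 while IL-4 was blocked by an antibody (11B11, 1 µg/ml). The cultures differ in all of these additions at once, so the effects of IFN-γ and of the others cannot be told apart. Both cultures were stimulated through the T cell receptor and CD28 for 2 days and harvested after 3 more, and the number of donor mice, and whether their cells were pooled, is not given in the labels. With 1 array per group no difference has a replicate check, so no test or p-value is given. In RNA of a whole culture, fewer cells that express a gene and less RNA per cell cannot be told apart.

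MHC class I molecules show peptides from inside the cell to CD8 T cells and NK cells. Proteasomes cut proteins, the TAP transporter moves the peptides into the endoplasmic reticulum, and tapasin, encoded by Tapbp, holds the empty heavy chain and its light chain there until a peptide fits. IFN-γ is a classical inducer of this pathway, in part through IRF1, and NLRC5 binds the promoters of class I genes through the proteins assembled on their X and Y boxes.

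The promoter sequences of 4 heavy chain genes and of Tap1 are shown because the array values divided the heavy chains, with H2-Q10 apart from the others. They are the bases before the annotated start in the RefSeq annotation of GRCm38.p6, 250 for each heavy chain gene, and all lie on chromosome 17. Those of H2-K1 are at chr17:34000334-34000583 on the minus strand, from the more downstream of its 2 listed starts, and those of H2-D1 at chr17:35262844-35263093 on the plus strand. H2-Q10 is at chr17:35469839-35470088 and H2-M3 at chr17:37269984-37270233, both on the plus strand. The Tap1 sequence, chr17:34187331-34187555 on the plus strand, is the whole stretch of 225 bases between its start and that of Psmb9, which is read in the opposite direction. Capitals mark matches on either strand to an interferon-response motif (TTTCNNTTC) and a κB palindrome (GGGANTCCC). They also mark the CRE-like core of the X box (TGACG) and CCAAT. The Y box holds the CCAAT letters, but a CCAAT match need not be a Y box. No marked matches overlap.
H2-K1 promoter: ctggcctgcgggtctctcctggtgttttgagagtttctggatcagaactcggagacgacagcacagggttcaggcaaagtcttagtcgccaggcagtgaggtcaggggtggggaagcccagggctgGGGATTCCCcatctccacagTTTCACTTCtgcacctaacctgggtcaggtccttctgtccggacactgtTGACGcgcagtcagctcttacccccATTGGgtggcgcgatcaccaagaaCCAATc
H2-D1 promoter: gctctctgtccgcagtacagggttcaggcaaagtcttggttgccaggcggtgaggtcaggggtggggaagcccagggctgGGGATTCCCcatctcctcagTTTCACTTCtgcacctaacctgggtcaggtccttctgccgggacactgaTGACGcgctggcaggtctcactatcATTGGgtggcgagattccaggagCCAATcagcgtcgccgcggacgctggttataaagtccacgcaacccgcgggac
H2-Q10 promoter: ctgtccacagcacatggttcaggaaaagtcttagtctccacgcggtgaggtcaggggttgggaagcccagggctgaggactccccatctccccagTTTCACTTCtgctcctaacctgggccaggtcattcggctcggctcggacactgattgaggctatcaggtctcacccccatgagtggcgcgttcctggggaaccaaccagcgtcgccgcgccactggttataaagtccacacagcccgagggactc
H2-M3 promoter: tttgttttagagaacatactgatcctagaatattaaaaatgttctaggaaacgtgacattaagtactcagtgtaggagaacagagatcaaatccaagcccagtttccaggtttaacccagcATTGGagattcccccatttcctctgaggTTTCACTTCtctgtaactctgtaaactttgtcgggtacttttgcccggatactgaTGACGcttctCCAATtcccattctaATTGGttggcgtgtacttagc
Tap1 promoter: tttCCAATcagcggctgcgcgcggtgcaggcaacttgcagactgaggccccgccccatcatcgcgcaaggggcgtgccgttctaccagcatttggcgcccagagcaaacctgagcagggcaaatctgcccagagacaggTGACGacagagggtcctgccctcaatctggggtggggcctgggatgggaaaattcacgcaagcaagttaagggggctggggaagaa

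The promoters of H2-K1, H2-D1, H2-Q10 and H2-M3 all held the interferon-response letters TTTCACTTC. Of 32851 windows of the same length before annotated mouse starts, 6.31% held a match to TTTCNNTTC. H2-K1 and H2-D1 also held the κB palindrome, with the letters GGGATTCCC in both, and 0.636% of windows held a match to it. At the same distance from the interferon-response motif H2-Q10 had AGGACTCCC, with the substitutions G1A and T5C counted from the 5′ end of the H2-K1 letters. The letters TGACG occurred in H2-K1, H2-D1, H2-M3 and Tap1 and not in the H2-Q10 window, against 17.8% of all windows. CCAAT occurred on either strand in these 4 windows too, against 33.8% of all windows, and not in that of H2-Q10. Before the shared letters CAGCGTCGCC, H2-D1 had CCAAT and H2-Q10 had the substitution T5C, counted from the 5′ end of CCAAT. This is the H2-D1 match nearest its start, at base -53. The H2-D1 match between it and TGACG, printed as ATTGG, was not compared base by base with H2-Q10. Over all 250 bases the H2-Q10 sequence was 85.9% identical to that of H2-D1 at 241 aligned bases. Of windows not printed, that of B2m on chromosome 2 held TGACG and CCAAT, and those of Tapbp and H2-T23 held CCAAT alone among the marked motifs. A match is a description of these letters only, and binding was not measured.

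Tap1, Tap2, Tapbp and Nlrc5 were all moderately higher in CD103+ Th1, and H2-Q10 was about an order of magnitude lower. The classical heavy chains and the light chain were nearly level on their brightest probe sets, while dimmer ones of the heavy chains varied. Of the 9 genes measured, 8 had a log2 ratio above 0, where 47.4% of all measured genes did. None of the 9 was at least 2-fold higher, where 5.04% of the 11194 measured genes were, and 1 was at least 2-fold lower, where 4.87% were. At 1.5-fold, 5 of the 9 were higher, Nlrc5, Tapbp, H2-M3, Tap1 and Tap2, against 12.4% of measured genes. The median log2 ratio of the 9 was 0.60, beside -0.027 for all measured genes. A gene counted as measured where at least 1 array lay above a floor of 78.5, the median signal over both arrays, since low signals are mostly background.

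**Figure D1:**
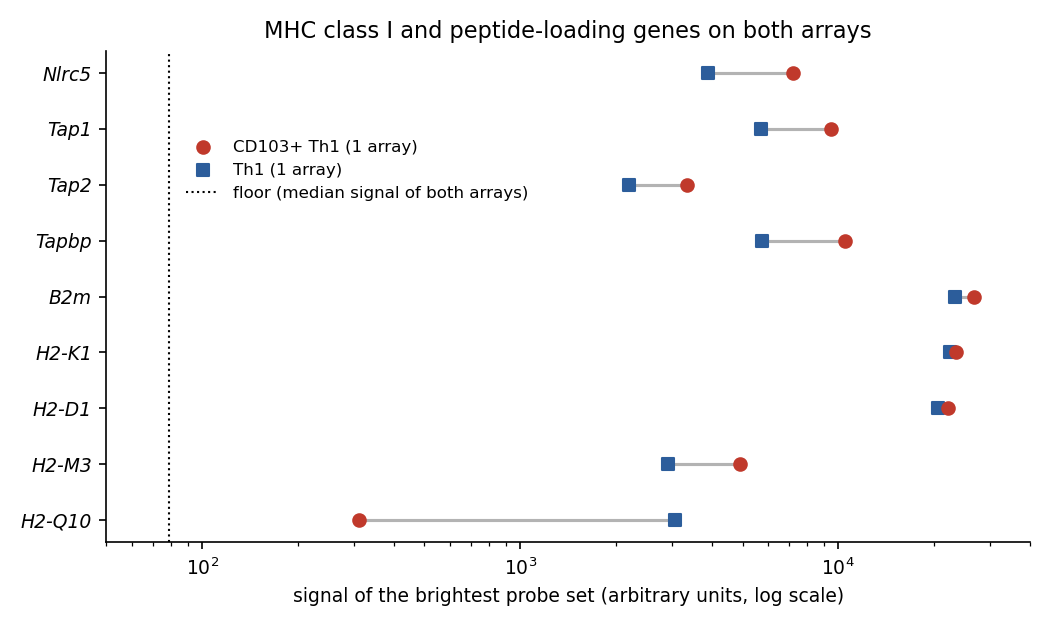
Signals of the brightest probe set of each gene on the CD103+ Th1 array (red circles) and the Th1 array (blue squares), in arbitrary units on a log scale, with the floor of 78.5 dotted. Nlrc5, Tap1, Tap2, Tapbp and H2-M3 lie further right in CD103+ Th1, B2m, H2-K1 and H2-D1 nearly coincide, and H2-Q10 is at 312 in CD103+ Th1 and 3076 in Th1.

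Nlrc5, whose product is the transactivator of class I genes, had 7181 units of signal in CD103+ Th1 and 3899 in Th1, 1.84-fold higher. It has 1 probe set here. Its log2 ratio of 0.88 lay above those of 93.6% of measured genes.

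The transporter is a dimer of TAP1 and TAP2, which pumps peptides into the endoplasmic reticulum at the cost of ATP. Tap1 had 9513 in CD103+ Th1 and 5697 in Th1, 1.67-fold higher. Its other 3 probe sets were under the floor on both arrays, so this value rests on 1 of 4. Tap2 had 3344 in CD103+ Th1 and 2204 in Th1, 1.52-fold higher, on a single probe set. Both chains of the transporter thus had the higher signal in CD103+ Th1, with log2 ratios of 0.74 and 0.60. Tapbp, for the tapasin that bridges the transporter to the heavy chain, had 10473 in CD103+ Th1 and 5761 in Th1, 1.82-fold higher. A second Tapbp probe set, at 1210 in CD103+ Th1 and 623 in Th1, gave nearly the same answer, 1.94-fold higher.

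H2-M3 encodes a nonclassical heavy chain that presents N-formylated peptides of bacteria and mitochondria. Its single probe set had 4898 in CD103+ Th1 and 2911 in Th1, 1.68-fold higher, close to Tap1. Ratios of 5 genes, those of Nlrc5, Tapbp, H2-M3, Tap1 and Tap2, thus fell between 1.52-fold and 1.84-fold. How these 5 rank among themselves cannot be read from 1 array per group.

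B2m, the light chain of every class I molecule, was nearly level. Its brightest probe set had 26660 in CD103+ Th1 and 23275 in Th1, 1.15-fold higher. The other had 23108 in CD103+ Th1 and 22872 in Th1, 1.01-fold higher.

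The classical heavy chains H2-K1 and H2-D1, which present peptides to CD8 T cells, were also nearly level on their brightest probe sets. H2-K1 had 23412 in CD103+ Th1 and 22437 in Th1, a log2 ratio of 0.06. H2-D1 had 22119 in CD103+ Th1 and 20583 in Th1, a log2 ratio of 0.10. Dimmer probe sets of both genes gave other values. The dimmest H2-K1 probe set had 3448 in CD103+ Th1 and 1994 in Th1, 1.73-fold higher, and the other 3 had log2 ratios from 0.06 to 0.21. For H2-D1, 6 of 9 probe sets lay above the floor on both arrays, with log2 ratios from -0.23 to 0.46. The probe set at 0.46 had 8058 in CD103+ Th1 and 5861 in Th1 and is the one of the 6 without a suffix letter, which the manufacturer uses for probes shared between transcripts. All 4 H2-K1 probe sets and the brightest of H2-D1 carry such a letter. Whether they also read other class I transcripts was not tested. The one at -0.23 was dim, with 133 in CD103+ Th1 and 157 in Th1. Another 2 H2-D1 probe sets passed the floor in CD103+ Th1 alone, at least 1.10-fold and at least 1.65-fold higher, and 1 was under it on both. The probe set shared between H2-K1 and H2-D1 had 27001 in CD103+ Th1 and 22912 in Th1, 1.18-fold higher.

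**Figure D2:**
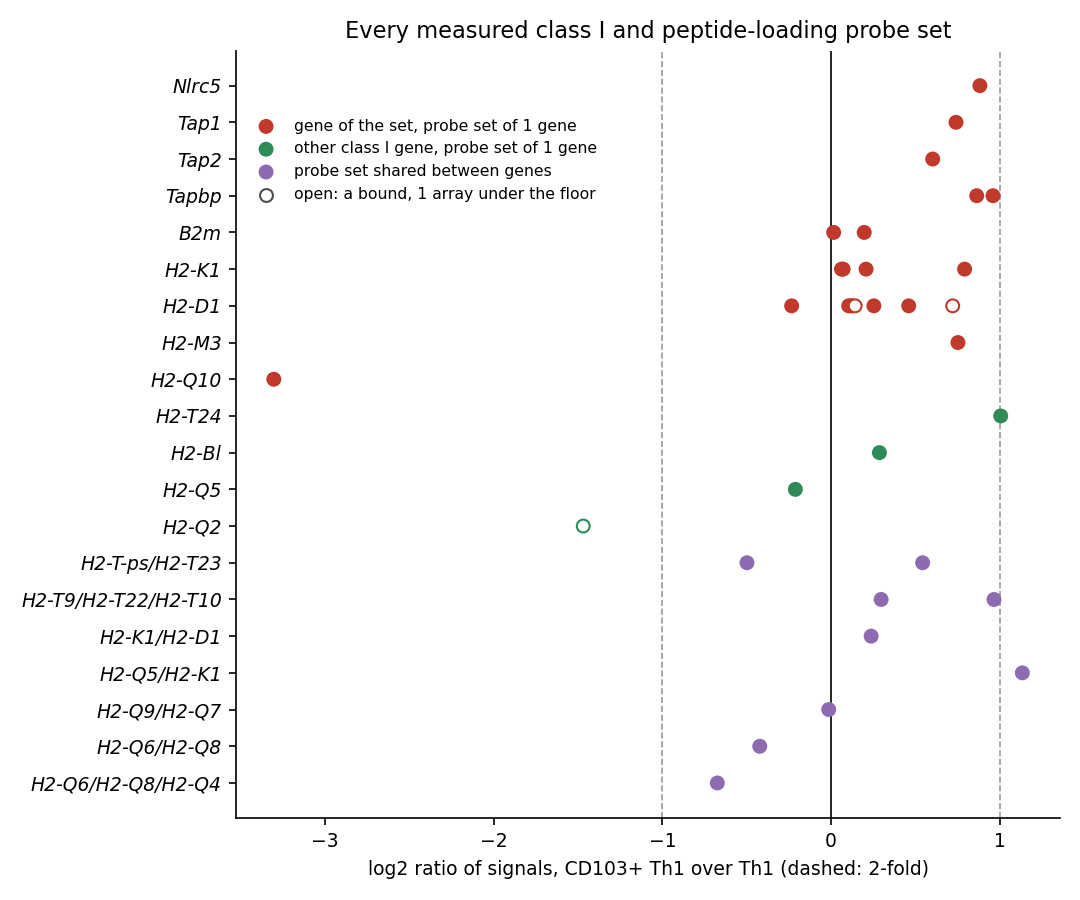
Log2 ratio of CD103+ Th1 over Th1 for every measured probe set of the genes described here (red), of other class I genes (green) and of groups of genes that share a probe set (purple), with open circles for bounds and dashed lines at 2-fold. H2-Q10 is alone at -3.30, and the H2-K1 and H2-D1 probe sets spread from -0.23 to 0.79.

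The spread of ratios over all genes is given here by signal level. B2m, H2-K1 and H2-D1 were among 310 genes with a geometric mean signal of 10000 or more, of which 0.323% had a ratio of 2-fold or more and 2.9% one of 1.5-fold or more in the higher direction. The central 95% of log2 ratios in that range ran from -0.74 to 0.59. Nlrc5, Tap1, Tap2, Tapbp and H2-M3 were among 2109 genes from 2000 to 10000, of which 4.31% had a ratio of 2-fold or more and 10.8% one of 1.5-fold or more in that direction. All 5 were at least 1.5-fold higher there, and their log2 ratios of 0.60 to 0.88 lay inside the central 95% of that range, -1.01 to 1.23. H2-Q10, among 4100 genes from 500 to 2000, lay far outside the central range of -1.17 to 1.25. The highest signals on the arrays were 36373 in CD103+ Th1 and 36496 in Th1. Whether the brightest probe sets still respond in proportion to RNA was not tested.

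**Figure D3:**
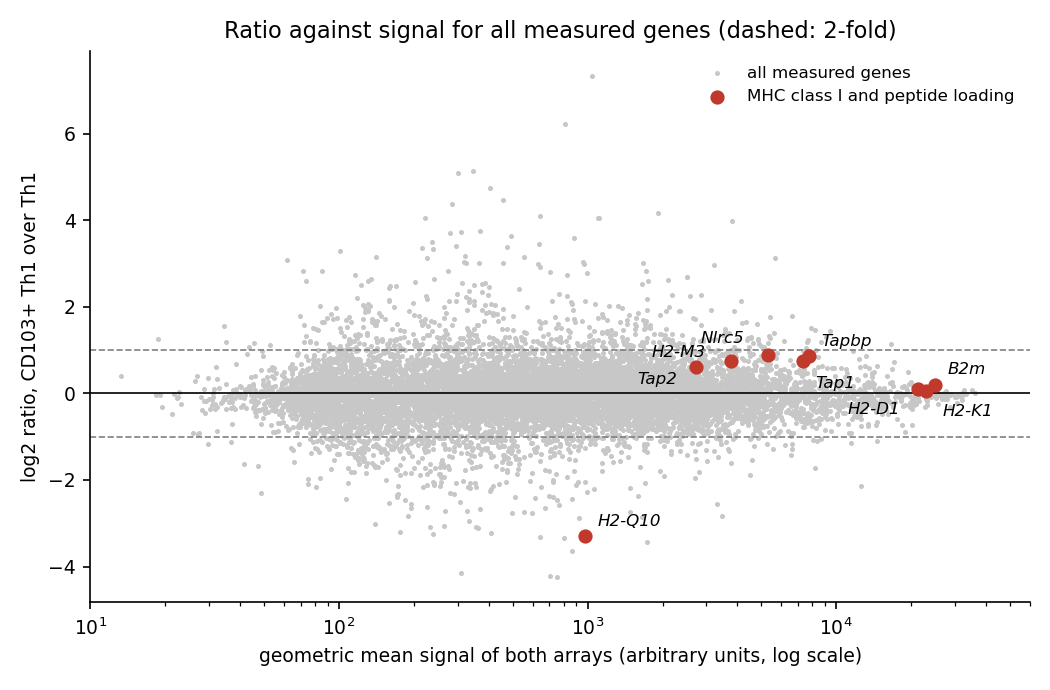
Log2 ratio of CD103+ Th1 over Th1 against the geometric mean signal of both arrays (log scale) for all 11194 measured genes (grey) and the 9 genes described here (red), with dashed lines at 2-fold. The grey cloud narrows at high signal, where B2m, H2-K1 and H2-D1 lie, and H2-Q10 is at -3.30, with 7 measured genes lower.

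H2-Q10 encodes a heavy chain of the Qa family that lacks a membrane anchor and is known as a protein secreted by the liver. Its probe set had a signal of 312 in CD103+ Th1 against 3076 in Th1, which is 9.86-fold lower, with both values above the floor. Of 11194 measured genes, 7 had a lower ratio. This rests on 1 probe set, and whether other Qa transcripts bind to it was not tested. Of 5 hepatocyte markers, 4 had a probe set of their own and all 4, Alb, Apoa1, Ttr and Apoc3, were under the floor on both arrays. With the floor at the 75th percentile of all signals, 472, the CD103+ Th1 value became a bound and H2-Q10 was at least 6.52-fold lower.

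The other H2-Q probe sets are described next, in a grouping by gene name that was made after the values were seen. H2-Q2 had 62.8 in CD103+ Th1, under the floor, and 217 in Th1, at least 2.77-fold lower. H2-Q5 had 1070 in CD103+ Th1 and 1240 in Th1, a log2 ratio of -0.21. Among shared probe sets, that of H2-Q6, H2-Q8 and H2-Q4 had 1533 in CD103+ Th1 against 2447 in Th1, or 1.60-fold lower. That of H2-Q6 and H2-Q8 had 7314 in CD103+ Th1 against 9804 in Th1, or 1.34-fold lower. That of H2-Q9 and H2-Q7, which encode the Qa-2 antigen, was level, with 19166 in CD103+ Th1 and 19358 in Th1. The sign of the H2-Q9 and H2-Q7 value, -0.014, turned to 0.057 with quantile normalization and to 0.00060 with medians set equal. A probe set shared by H2-Q5 and H2-K1 went the other way, with 204 in CD103+ Th1 and 93.2 in Th1, 2.19-fold higher. Some of these probe sets share genes, so they are not separate observations.

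H2-T23 encodes Qa-1, which shows leader peptides of other class I chains to the CD94 receptor of NK cells and some T cells. Its 2 probe sets are shared with H2-T-ps and pointed in opposite directions. The brighter had 15982 in CD103+ Th1 and 10978 in Th1, 1.46-fold higher. The dimmer had 2198 in CD103+ Th1 against 3106 in Th1, or 1.41-fold lower. No level can be given for H2-T23 alone. Of 2 probe sets shared by H2-T9, H2-T22 and H2-T10, one had 12978 in CD103+ Th1 and 10570 in Th1, 1.23-fold higher, and the other 246 in CD103+ Th1 and 126 in Th1, 1.95-fold higher. H2-T24 was at 248 in CD103+ Th1 and 124 in Th1, 2.01-fold higher, and fell under the 2-fold threshold with quantile normalization, at a log2 ratio of 0.95. H2-Bl was at 120 in CD103+ Th1 and 98.1 in Th1, 1.22-fold higher, near the floor. Single-gene probe sets of H2-D4, H2-M9, H2-M10.1, H2-T3 and H2-T18 were under the floor on both arrays, as was a second one of H2-Q5. The shared ones of H2-T3 with H2-T18, and of H2-Q2 with H2-D1 and Gm38417, were under it too.

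Most of these genes lie in the H2 complex on chromosome 17. From Tapbp to H2-M3 in the order of the GRCm38.p6 gene table, 101 measured genes included 81 that belong to neither class of MHC or peptide loading. Of those 81, 6 were higher by 2-fold or more, against 5.04% of all measured genes, and 2 were lower, against 4.87%. Their median log2 ratio was 0.07. Tap1 and Tap2 lie beside the immunoproteasome genes Psmb9 and Psmb8 and between class II genes. Among measured genes with a probe set of their own, H2-Q2, H2-Q5 and H2-Q10 come next after H2-D1. Those on either side of these 4 genes, Ddx39b and Tcf19, had log2 ratios of 0.03 and 0.37.

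**Figure D4:**
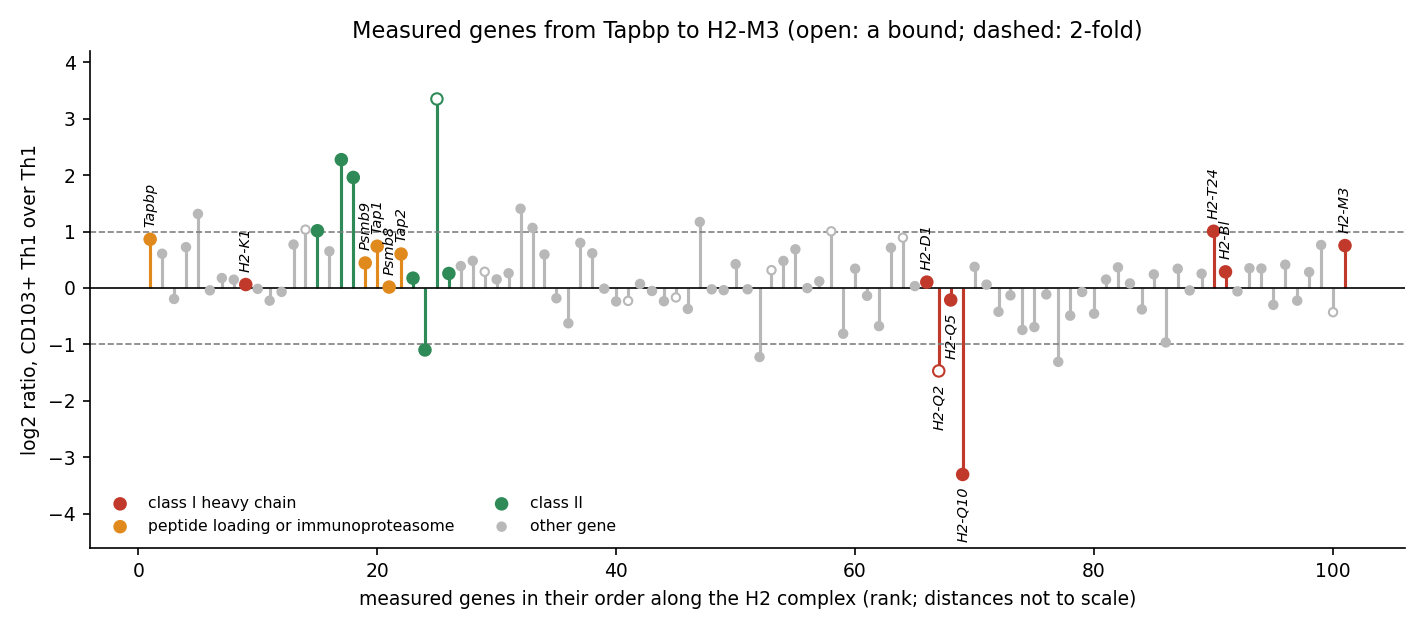
Log2 ratio of CD103+ Th1 over Th1 for 101 measured genes from Tapbp to H2-M3 in gene order (rank, not distance), with class I heavy chains in red, peptide-loading and immunoproteasome genes in orange, class II genes in green and others in grey. Open circles are bounds and dashed lines mark 2-fold, and the 3 red points below 0 are H2-Q2, H2-Q5 and H2-Q10.

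Genes that act before and beside the transporter were read from lists of the pathway. Among 10 helpers of loading and trimming in the endoplasmic reticulum, 1 was higher and none lower by 2-fold or more, against 5.04% and 4.87% of all measured genes. The median log2 ratio was 0.11, and 0 were higher when each gene's probe sets were averaged. The higher gene was Tapbpl, for the tapasin-related peptide editor TAPBPR, with 2388 in CD103+ Th1 and 758 in Th1, 3.15-fold higher. Log2 ratios of the Tapbpl probe sets lay between 0.25 and 1.65. Pdia3, for the disulfide isomerase of the loading complex, had 9018 in CD103+ Th1 and 5716 in Th1, 1.58-fold higher. That is from the brighter Pdia3 probe set, at 0.66 on the log2 scale, while the dimmer reached only 0.18. The chaperone gene Canx was 1.27-fold lower, and Uggt1, which tags misfolded glycoproteins, 1.25-fold higher. Of the 4 measured genes of the immunoproteasome and its activator none differed by 2-fold, where 5.04% of all measured genes were higher and 4.87% lower. All 4 had log2 ratios above 0, where 47.4% of all measured genes did, and 1 of them, Psmb8, was nearly level on its brightest probe set. Psmb10 was highest with 6526 in CD103+ Th1 and 3895 in Th1, 1.68-fold higher, while Psmb9 was 1.36-fold, Psme1 1.16-fold and Psmb8 1.01-fold higher. The 2 Psmb8 probe sets had log2 ratios of 0.02 and 0.33. Their constitutive counterparts Psmb5, Psmb6 and Psmb7 were lower, by 1.27-fold, 1.27-fold and 1.35-fold. Those are log2 ratios of -0.348, -0.344 and -0.434, and the 25th percentile of all measured genes was -0.347. A change of subunits was not tested.

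Among 14 measured regulators of class I transcription, 2 were higher and none lower by 2-fold or more, where 5.04% and 4.87% of all measured genes were. Their median log2 ratio was 0.21, and 1 was higher when probe sets with a suffix letter were left out. Irf1, which binds the interferon-response motif, had 8668 in CD103+ Th1 and 1966 in Th1, 4.41-fold higher. Kat2b, for an acetyltransferase, was 2.55-fold higher, with probe sets from 0.21 to 1.59 on the log2 scale. Rfx5, a subunit of the X box complex that NLRC5 works through, went the other way, with 604 in CD103+ Th1 against 1126 in Th1, or 1.86-fold lower. The coactivator gene Crebbp was 1.76-fold higher.

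Of 8 measured genes on a list of receptors for class I and related molecules, 4 were higher and none lower by 2-fold or more, beside 5.04% and 4.87% of all measured genes. Their median log2 ratio was 0.90. Both the 8 and this median include Lag3, 1.20-fold higher, whose product is known for binding class II. Cd8a had 2054 in CD103+ Th1 and 466 in Th1, 4.41-fold higher, with probe sets from 0.24 to 2.16 on the log2 scale. Klrd1, for the CD94 chain that binds Qa-1, had 7546 in CD103+ Th1 and 2008 in Th1, 3.76-fold higher. Cd160 was 3.18-fold higher and Cd8b1 2.28-fold. The Cd160 call was lost with the floor at the 75th percentile. Klrc1, whose product pairs with CD94, was only 1.18-fold higher. Of 5 measured class I-like genes, 1 was higher by 2-fold or more, beside 5.04% of all measured genes. This was Fcgrt, for the neonatal Fc receptor, at least 4.02-fold, with 315 in CD103+ Th1 against 22.1, under the floor, in Th1, a call lost with the floor at the 75th percentile. Cd1d1, which presents lipids, was 1.80-fold higher, Hfe, for the iron regulator, at least 1.34-fold higher, and Mr1, which presents vitamin metabolites, 1.46-fold lower.

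MHC class II genes serve presentation to CD4 T cells. Of 8 measured class II loading genes, 5 were higher and 1 lower by 2-fold or more, beside 5.04% and 4.87% of all measured genes, and their median log2 ratio was 1.18. With the floor at the 75th percentile 2 were higher, not H2-Aa, H2-DMb2 or Cd74, and the median was 0.76. Without suffix-letter probe sets 3 were higher and 0 lower. The α chain gene H2-Aa had 798 in CD103+ Th1 against 58.5, under the floor, in Th1, at least 10.2-fold higher, with log2 ratios of its probe sets between 2.07 and 3.35. H2-DMa, for the class II peptide editor, had 4783 in CD103+ Th1 and 990 in Th1, 4.83-fold higher. Log2 ratios of the H2-DMa probe sets lay between 1.40 and 2.27. H2-DMb2, for its partner chain, was 3.88-fold higher, and the invariant chain gene Cd74 2.54-fold. The β chain gene H2-Ab1 went the other way, with 1423 in CD103+ Th1 against 3043 in Th1, or 2.14-fold lower. With 1 array per group the difference between class I and class II genes was not tested.

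**Figure D5:**
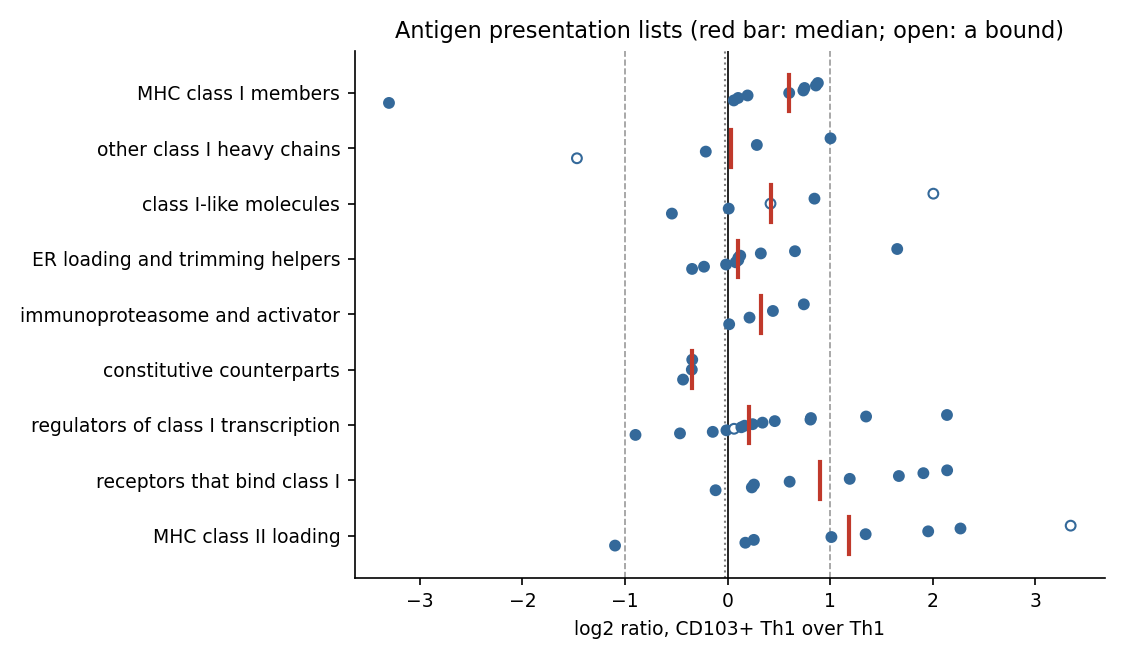
Log2 ratio of CD103+ Th1 over Th1 for measured genes of 9 antigen presentation lists, with a red bar at each median, open circles for bounds, dashed lines at 2-fold and a dotted line at the median of all measured genes, -0.027. The 9 MHC class I and peptide loading genes have a median of 0.60, the class II list 1.18.

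Markers of other cell types were checked because such cells carry MHC molecules too. Of 9 T cell markers 8 were measured, none differed by 2-fold or more, and their summed signals were 80094 in CD103+ Th1 and 73426 in Th1. Among them, Cd3d had 18038 in CD103+ Th1 and 17966 in Th1, and Cd4 had 1081 in CD103+ Th1 and 973 in Th1. Of 10 macrophage and dendritic cell markers 5 were under the floor on both arrays, Itgam, Itgax, Lyz2, Tyrobp and Cd14, and the 10 summed to 1539 in CD103+ Th1 and 1061 in Th1. The perforin-2 gene Mpeg1 made up much of that sum, with 660 in CD103+ Th1 against 5.75 in Th1, at least 8.41-fold higher. In contrast, Cd68 was 2.25-fold and Csf1r 1.59-fold lower, and of the 5 measured markers 2 had log2 ratios above 0 and 3 below. Of 7 B cell markers with a probe set 4 were under the floor, Ms4a1, Cd79a, Pax5 and Cr2, and the 7 summed to 558 in CD103+ Th1 and 474 in Th1. Cd79b, with 244 in CD103+ Th1 against 75.8 in Th1, was at least 3.11-fold higher, while Cd22 was 1.21-fold higher and Blk 1.19-fold lower. Of 3 NK cell markers Ncr1 and Klra8 were under it, and the 3 summed to 327 in CD103+ Th1 and 160 in Th1, with Klre1 2.28-fold higher. Both CD8 chain genes, given above, were higher in CD103+ Th1, summing to 3647 there and 1163 in Th1. The part of other cells in the values of the class I genes was not tested.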

How the data were processed

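Each of 2 cultures was measured on 1 array. The deposited table gives 1 signal intensity per probe set and array in linear arbitrary units. The submitters' processing notes name GCOS, with no version. No scaling target or filter is given in the sources used here. CD103+ Th1 had a median of 78.0, Th1 one of 78.8, with 2% trimmed means of 498 on each, and the values were used as deposited.

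Probe sets were named by the platform annotation, updated by gene identifier to GRCm38.p6. Of 45037 probe sets, 34945 had 1 symbol, 932 several and 9160 none listed, and 34741 of the first matched. Ratios were computed in Python 3.11.15 with pandas 2.3.3. Signals below the floor took its value, which makes the fold a bound, and probe sets under it on both arrays got no ratio. A gene was represented by its measured probe set of highest mean log2 signal. Every gene of the set was named, and of each other list up to 4 genes with the largest ratios. Other genes, among them Klrc1, H2-Ab1, the markers, the H2 neighbours and the remaining proteasome subunits, were named after their values were seen, and the ranges of signal were set then too. The genes and lists were chosen with earlier results of these data known. The floor and ratio steps were tested on simulated data. No test was run with 1 array per group, and the number of arrays limits the precision.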

Additional observations from a re-analysis of the deposited data

How the results depend on the processing

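The count of class I genes at least 2-fold higher was 0 and that at least 2-fold lower 1 under equal medians, equal trimmed means, quantile normalization, a floor at the 25th or 75th percentile, a pseudocount replacing the floor, and the mean of all probe sets. Only probe sets without a suffix letter left 5 genes, not H2-Q10, with 0 lower and a median log2 ratio of 0.75. At 1.5-fold, 5 genes were higher. The median was 0.57 over 10 genes when shared probe sets were counted too, a choice made after seeing the data. Log2 ratios over the settings ran from -3.34 to -2.70 for H2-Q10, 0.06 to 0.28 for H2-K1, 0.10 to 0.46 for H2-D1 and 0.11 to 0.24 for B2m, and from 0.60 upwards for Nlrc5, Tapbp, H2-M3, Tap1 and Tap2. All measured genes gave 564 higher and 545 lower calls at 2-fold. These counts were 974 and 1206 with the floor at the 25th percentile, 267 and 199 at the 75th, 1391 and 1499 at 1.5-fold, and 108 and 86 at 4-fold. In the lists, these 2-fold calls were lost: Tapbpl with the mean of its probe sets, H2-T24 with quantile normalization, the pseudocount or the 75th percentile floor, H2-Q2 and Fcgrt with that floor, and 1 of 2 regulators without suffix-letter probe sets. Genes of the receptor list higher numbered 3, not 4, with that floor, where Cd160 was lost, and 3 without suffix-letter probe sets. Class II genes higher numbered 2 with that floor, where H2-Aa, H2-DMb2 and Cd74 were lost. Without suffix-letter probe sets 3 were higher and 0 lower. Near the floor, signal over background limits all ratios. No paired analysis was possible because each group has 1 array.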
